A study of Mus musculus with 6 samples.

Results

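Enzymes that add or remove methyl and acetyl groups on histones and DNA, and bromodomain proteins that bind acetylated histones, were compared between NIT-1 cells given cadmium and cells kept in medium. The genes were taken by the start of the symbol: Kdm, Kmt, Hdac, Sirt with a digit, Prmt, Setd, Ehmt, Ezh, Kat with a digit, Dnmt, Tet with a digit, Suv, Nsd or Brd, without pseudogenes. Of 18957 genes with a probe of their own, 58 matched, and 54 of these encode an enzyme or a bromodomain protein. The other 4 matched by spelling and are given apart: Nsdhl of sterol synthesis, Brd3os on the strand opposite Brd3, Kdm4dl, a pseudogene in RefSeq, and Ezhip, an inhibitor of the Ezh2 complex. RefSeq lists 95 protein-coding genes with these symbols, and those outside the 54 were not analysed here.

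NIT-1 is a line of mouse pancreatic beta cells, started from a tumour of transgenic mice in which an insulin promoter drove a viral oncogene. All cells grew in the same serum-supplemented medium. The control group had 3 arrays of cells in medium with 0 µmol/L of CdSO4 and the cadmium group 3 arrays of cells with 4 µmol/L, each for 24 h after 24 h in the plates. The labels call the arrays of a group biological replicates and do not state that the cultures were started separately. The p-values therefore measure only the spread between these samples, which may be technical. Values are log2 signals (mean ± SD, n = 3 in each group), and a change is cadmium minus control.

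Methylation of lysine 4 on histone H3 marks promoters and enhancers, that of lysine 36 marks transcribed gene bodies, and that of lysines 9 and 27 marks silent chromatin. Each mark has enzymes that write it and enzymes that erase it. Most erasers are dioxygenases of the Jumonji type, which need iron, oxygen and 2-oxoglutarate. Kdm1a belongs to another class, the flavin-dependent amine oxidases. Histone deacetylases use zinc, and sirtuins use NAD. Kdm1a is brought to its targets by repressors of the Snail and Gfi1 families and by Insm1, a factor of endocrine cells.

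The array medians averaged 3.34 in control and 3.39 with cadmium, and each cadmium median was the higher one (exact permutation p = 0.1, the smallest that 3 against 3 can give). On the second principal component over all genes, with 15.6% of the variance, control replicate 3 and cadmium replicate 1 stood away from the other 4 arrays. An approximate background bound, 6.18, was the level under which 95% of the negative control probes fell, averaged over the arrays. Both group means lay above it for 10 of the 54 genes, 1 mean for 8 and no mean for 36, and no fold is given for those 36. Where 1 mean lay below, the fold is a lower bound, computed with each dimmer array raised to its own bound where it was lower. All 8 measured markers of beta cells lay below the bound in both groups, among them Ins2, encoding insulin, at 5.27 ± 0.10 in control and 5.29 ± 0.04 with cadmium. Of these 8 markers 1 rose, Kcnj11, a call lost without any 1 array except cadmium replicate 3 (adjusted p of up to 0.135). Their summed linear signal was 168 to 178 in control and 186 to 192 with cadmium. Among 4 stromal and immune markers the collagen gene Col3a1 fell 2.01-fold, from 9.07 ± 0.13 to 8.06 ± 0.17. The other 3 did not pass: Col1a2 changed by -0.04 ± 0.05 (SE), Ptprc by 0.06 ± 0.05 (SE) and Vim by 0.16 ± 0.05 (SE), with every cadmium array of Vim above every control array. The summed linear signal of the 4, to which Col3a1 adds the most, was 548 to 645 in control and 292 to 354 with cadmium. Of the 2 markers of other islet cells and the 2 of exocrine pancreas 0 passed limma's test, with 0 and 1 at an unadjusted p under 0.05. The part of these markers in the results below was not tested. In bulk samples fewer cells of a type and less RNA per cell cannot be told apart.

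With cadmium 17 of the 54 genes fell and 2 rose at an adjusted p under 0.05, and 35 did not pass. Of the 19 called genes both means lay above the background bound for 3, 1 mean for 5 and no mean for 11. Over all 18957 genes 5.72% fell and 6.46% rose. Among the 6624 protein-coding genes at or above the median level, where 48 of the 54 lie, 13.0% fell and 6.42% rose, against 17 and 2 of those 48. The median change was -0.10 over the 54 genes, 0.04 over all genes and 0.007 over those 6624. The changes of the 54 ran from -0.91 for Kdm3a to 1.36 for Kdm1a, and 38 were below 0. Below 0 were also 7087 of all 18957 genes and 3207 of the 6624. With each array centred on its median 22 of the 54 fell and 1 rose, or 40.7% and 1.85%. The background was then 7.61% lower and 4.64% higher over all genes, and 16.5% and 4.50% over the 6624. The arrays of the groups did not overlap for 27 lower and 8 higher genes of the 54. Over all genes this held for 13.0% lower and 22.9% higher, and over the 6624 for 25.9% and 23.1%.

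**Figure D1:**
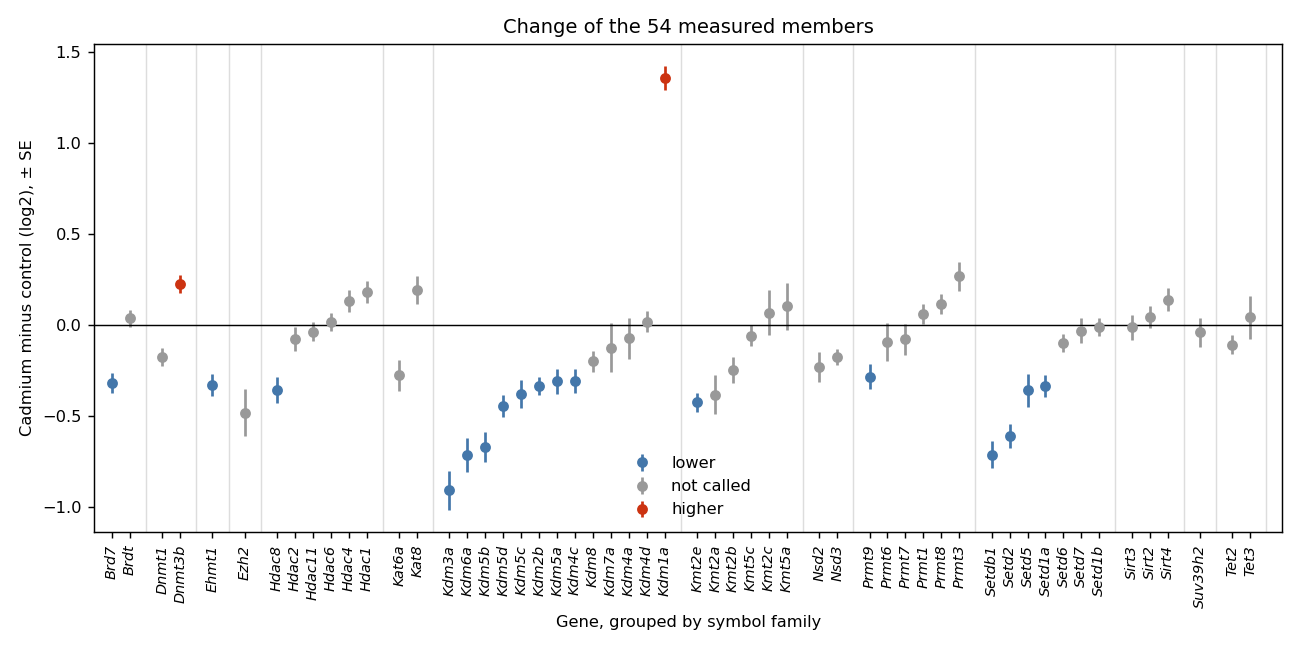
Change of each of the 54 genes on the log2 scale (vertical axis, cadmium minus control, bars are the standard error from limma), grouped by the start of the symbol. Kdm1a stands at 1.36, 8 other Kdm genes and 4 Setd genes are called lower, and 1 Hdac gene, 1 Prmt gene and 0 Sirt genes are called lower.

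**Figure D2:**
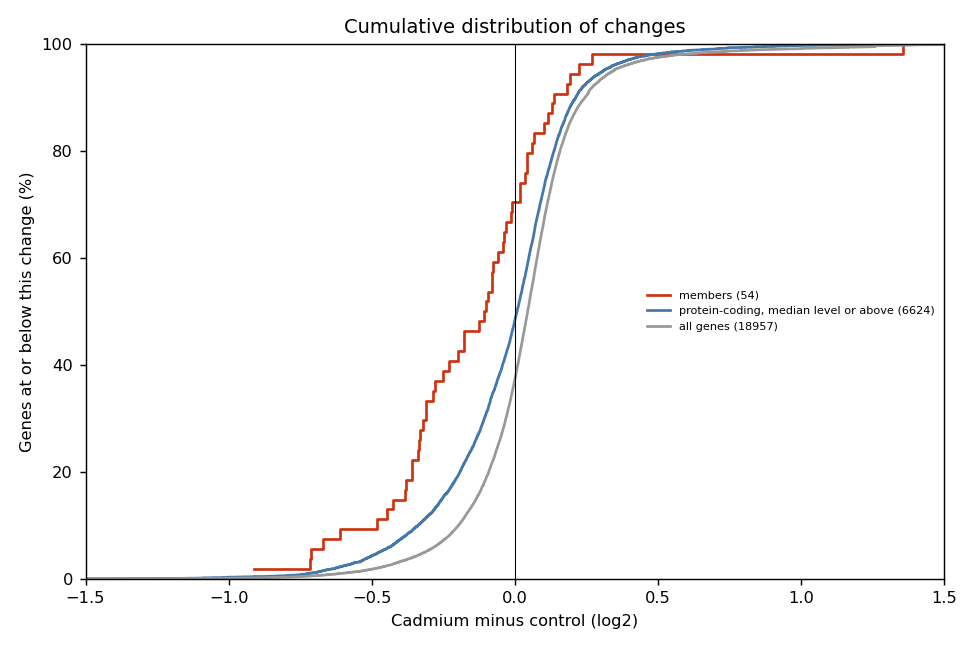
Cumulative share of genes (vertical axis, percent) at or below each change (horizontal axis, log2, cadmium minus control) for the 54 genes, for 6624 protein-coding genes at or above the median level and for all 18957 genes. The curve of the 54 lies to the left of both others around 0, with medians of -0.10, 0.007 and 0.04, and Kdm1a forms the last step at 1.36.

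Kdm1a, which removes methyl groups from lysine 4 of histone H3 and from other proteins, had signals of 6.04, 6.02 and 6.21 on the control arrays and 7.49, 7.43 and 7.41 on the cadmium arrays. All cadmium arrays lay more than 1 log2 unit above all control arrays. The mean rose from 6.09 ± 0.10 to 7.44 ± 0.04, a change of 1.36 ± 0.07 (SE), or at least 2.36-fold (limma adjusted p = 0.000541). The call held with each array left out, at an adjusted p of up to 0.00927. Kdm1a had the largest change of the 54 genes in either direction.

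The 4 measured Kdm5 genes, Jumonji enzymes that also act on lysine 4 of histone H3, fell. Kdm5b, which is known for its role in proliferating cells, had signals of 5.07, 5.02 and 5.20 on the control arrays and 4.56, 4.30 and 4.42 on the cadmium arrays. These groups lay apart by more than the spread within either, and the mean fell from 5.10 ± 0.09 to 4.43 ± 0.13 (limma adjusted p = 0.00321). Kdm5d, encoded on the Y chromosome, fell from 4.70 ± 0.06 to 4.25 ± 0.07, and its X-linked homologue Kdm5c fell from 6.96 ± 0.10 to 6.58 ± 0.10, 1.30-fold lower. Kdm5a, a partner of the retinoblastoma protein, fell from 5.95 ± 0.06 to 5.64 ± 0.11. The 4 changes were -0.67 ± 0.08 (SE), -0.45 ± 0.06 (SE), -0.38 ± 0.08 (SE) and -0.31 ± 0.07 (SE) for Kdm5b, Kdm5d, Kdm5c and Kdm5a. The calls of Kdm5b and Kdm5d held with each array left out. Kdm5c lost its call without control replicate 1 or 2 or cadmium replicate 2 or 3, at an adjusted p of up to 0.0828, and Kdm5a without any 1 array except cadmium replicate 1, at up to 0.104. Whether the probes of Kdm5c and Kdm5d bind each other's transcripts was not tested. Kdm5a, Kdm5b and Kdm5d lay below the background bound in both groups. The sample titles do not give the sex of the line. Whether these cells hold a Y chromosome, and so a Kdm5d transcript, was not tested either.

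Of 6 listed erasers of the other lysines 4 fell and 0 rose by limma, and 0 were higher at an unadjusted p under 0.05 either. Of the 6624 protein-coding genes at or above the median level 13.0% fell, and 17.1% were higher at that unadjusted p. Kdm3a acts on lysine 9 and is a known hypoxia-inducible gene. Its signals were 6.56, 6.66 and 6.32 on the control arrays and 5.77, 5.51 and 5.54 on the cadmium arrays. Every control array lay above every cadmium array, with control replicate 3 the lowest of its group. The mean fell from 6.52 ± 0.17 to 5.61 ± 0.14, at least 1.27-fold lower (limma adjusted p = 0.00271). This was the largest decrease of the 54 genes. Kdm6a, which erases lysine 27 methylation and is part of enhancer complexes, was at 6.76, 6.76 and 7.00 in control and 6.27, 6.01 and 6.11 with cadmium. It fell from 6.84 ± 0.14 to 6.13 ± 0.13, at least 1.59-fold lower (limma adjusted p = 0.00408). Its Y-linked homologue Uty, with a much weaker activity, fell from 3.94 ± 0.06 to 3.55 ± 0.05. Both means of Uty lay below the background bound, and whether these cells hold a Y chromosome was not tested. Kdm2b, which acts on lysine 36 and brings a Polycomb complex to unmethylated CpG islands, fell from 5.40 ± 0.05 to 5.06 ± 0.02. Kdm4c, for lysines 9 and 36, fell from 4.92 ± 0.05 to 4.61 ± 0.10, and lost its call without any 1 array except cadmium replicate 1, at an adjusted p of up to 0.0913. The related Kdm4a and Kdm4d did not pass, at -0.08 ± 0.11 (SE) and 0.02 ± 0.06 (SE), nor did Kdm7a and Kdm8, at -0.13 ± 0.13 (SE) and -0.20 ± 0.06 (SE). In all 8 of the 13 Kdm genes fell and 1 rose, where 13.0% and 6.42% of those 6624 protein-coding genes did.

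The promoter windows of Kdm1a, with the largest rise, and of Kdm3a and Kdm6a, with the largest falls, are shown because these 3 genes mark the ends of the range. They come from RefSeq on GRCm38.p6, from 250 bases before to 50 after the outermost start, and are printed 5′ to 3′ on the strand of the gene. Capitals mark matches on either strand to the heat shock element (GAANNTTC or TTCNNGAA), the core of the metal response element (TGCACNC or TGCGCNC), the core of the antioxidant response element (TGACNNNGC) and the core of the hypoxia response element (ACGTG). The windows lie at chr4:136602674-136602973, minus strand, at chr6:71632868-71633167, minus strand, and at chrX:18162325-18162624, plus strand.
Kdm1a: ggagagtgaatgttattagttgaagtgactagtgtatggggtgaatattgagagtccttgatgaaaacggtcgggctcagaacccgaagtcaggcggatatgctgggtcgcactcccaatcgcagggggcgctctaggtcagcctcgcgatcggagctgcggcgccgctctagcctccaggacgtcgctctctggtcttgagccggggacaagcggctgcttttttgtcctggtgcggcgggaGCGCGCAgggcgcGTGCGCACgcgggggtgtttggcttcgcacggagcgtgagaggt
Kdm3a: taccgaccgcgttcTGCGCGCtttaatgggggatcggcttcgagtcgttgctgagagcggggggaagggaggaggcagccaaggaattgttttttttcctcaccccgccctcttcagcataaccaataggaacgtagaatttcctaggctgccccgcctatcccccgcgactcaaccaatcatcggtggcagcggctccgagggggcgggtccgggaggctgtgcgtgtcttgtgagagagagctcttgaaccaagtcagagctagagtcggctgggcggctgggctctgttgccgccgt
Kdm6a: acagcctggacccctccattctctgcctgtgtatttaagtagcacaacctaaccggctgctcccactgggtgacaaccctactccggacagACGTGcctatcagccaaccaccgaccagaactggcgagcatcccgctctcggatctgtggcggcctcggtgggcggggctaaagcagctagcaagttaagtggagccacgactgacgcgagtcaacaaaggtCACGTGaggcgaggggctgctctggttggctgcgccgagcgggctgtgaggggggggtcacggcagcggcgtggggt
The window of Kdm1a held 3 matches to the metal response element core, 2 of which overlap, and no match to the other motifs. That of Kdm3a held 1 metal response match and that of Kdm6a 3 hypoxia response matches, 2 of which overlap. Among 17491 protein-coding genes with such a window 29.1% held the metal response core, 13.9% the heat shock element, 13.1% the antioxidant core and 20.7% the hypoxia core. Of the 46 windows matched to the 54 genes, 20, 4, 9 and 12 held them. Among the 15 windows of genes that fell the counts were 6, 3, 1 and 2, and among the 29 of genes that did not pass 12, 1, 8 and 10. The windows of the 2 genes that rose, Kdm1a and Dnmt3b, both held the metal response core and none of the other motifs. A match is a string of letters and was not tested for binding.

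**Figure D3:**
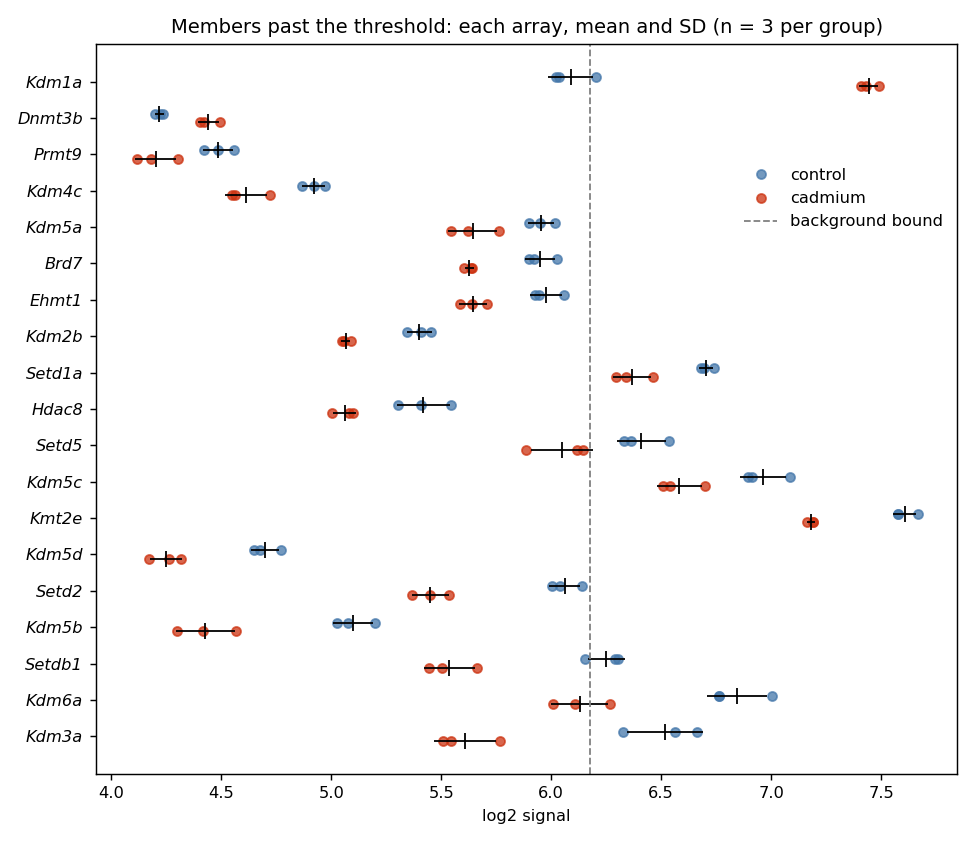
Log2 signal (horizontal axis) of the 19 genes past the threshold on each of 3 control and 3 cadmium arrays (points), with the mean (tick) and SD (bar) of each group and the background bound as a dashed line. The 3 points of each group do not overlap for any of the 19 genes, as for all 2309 called genes of the series (1224 higher and 1085 lower). Of the 19 genes 11 lie below the bound of 6.18 in both groups.

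Among the writers, the Setd family fell in 4 of 7 cases and rose in 0 by limma, with 0 higher at an unadjusted p under 0.05. Of the 6624 protein-coding genes at or above the median level 13.0% fell, and 17.1% were higher at that unadjusted p. With 7 genes the 0 higher says little about the family. Setdb1, which methylates lysine 9 at endogenous retroviruses and acts with Trim28, had signals of 6.30, 6.29 and 6.16 on the control arrays and 5.66, 5.50 and 5.44 on the cadmium arrays. Its mean fell from 6.25 ± 0.08 to 5.54 ± 0.11, at least 1.06-fold lower, with a measured change of -0.71 ± 0.08 (SE) (limma adjusted p = 0.00197). Setd2, the enzyme for trimethylation of lysine 36, was at 6.04, 6.00 and 6.14 in control and 5.54, 5.36 and 5.45 with cadmium. The groups lay apart, and the mean fell from 6.06 ± 0.07 to 5.45 ± 0.09 (limma adjusted p = 0.00201). Setd1a, a writer of lysine 4 methylation at promoters, fell 1.26-fold, from 6.70 ± 0.03 to 6.37 ± 0.09, while its paralogue Setd1b was at 5.42 ± 0.03 in control and 5.41 ± 0.04 with cadmium and did not pass. Setd5 fell from 6.41 ± 0.11 to 6.05 ± 0.14, a call that was lost without any 1 of the 6 arrays, at an adjusted p of up to 0.103. The call of Setd1a was lost without control replicate 1 or cadmium replicate 2 or 3, at up to 0.0568. Setd6 and Setd7, which also methylate proteins other than histones, did not pass, at -0.10 ± 0.05 (SE) and -0.03 ± 0.07 (SE).

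Of the 6 Kmt genes 1 fell, or 16.7%, beside 13.0% of the 6624 protein-coding genes at or above the median level. Kmt2e, a member of the trithorax group with little enzyme activity of its own, was at 7.58, 7.57 and 7.67 in control and 7.19, 7.16 and 7.19 with cadmium. It fell 1.34-fold, from 7.61 ± 0.05 to 7.18 ± 0.02, with both means above the bound (limma adjusted p = 0.00293). Kmt2a, a lysine 4 writer that is fused to other genes in leukaemia, was at 6.87 ± 0.16 in control and 6.48 ± 0.16 with cadmium. Its control arrays all lay above its cadmium arrays, and it did not pass (adjusted p = 0.0645), nor did Kmt2b, at 5.78 ± 0.03 in control and 5.53 ± 0.12 with cadmium (adjusted p = 0.0627). With each array centred the adjusted p was 0.0505 for Kmt2a and 0.0378 for Kmt2b, and with genes under the median level left out 0.0435 and 0.0405. Kmt2c, of the enhancer complexes, was at 6.96 ± 0.25 in control and 7.03 ± 0.09 with cadmium, with control replicate 3 higher than the other arrays. The writers of lysine 20 methylation on histone H4, Kmt5a and Kmt5c, did not pass, at 0.10 ± 0.13 (SE) and -0.06 ± 0.06 (SE).

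Ehmt1, which forms the dimethyl mark on lysine 9 in euchromatin, fell from 5.98 ± 0.07 to 5.64 ± 0.06 (limma adjusted p = 0.0148), a call lost without cadmium replicate 2 or 3, at up to 0.0602. Suv39h2, a lysine 9 writer of heterochromatin, was at 3.34 ± 0.13 in control and 3.29 ± 0.08 with cadmium and did not pass. Ezh2, the writer of lysine 27 methylation in Polycomb complex 2, had signals of 6.63, 6.72 and 6.51 on the control arrays and 5.84, 6.26 and 6.32 on the cadmium arrays. Every cadmium array was lower than every control array, with cadmium replicate 1 the lowest, and the change of -0.48 ± 0.13 (SE) did not pass (limma adjusted p = 0.054). Without control replicate 3 and cadmium replicate 1, an alternative chosen after seeing the data, Ezh2 changed by -0.39 and passed (adjusted p = 0.0192). It also passed with each array centred (adjusted p = 0.0426), with genes under the median level left out (0.0364), with array weights (0.0284) and without cadmium replicate 1 (0.0404), and its adjusted p was up to 0.161 with another array left out. The lysine 36 writers Nsd2 and Nsd3 were at -0.23 ± 0.08 (SE) and -0.18 ± 0.05 (SE) and did not pass (adjusted p = 0.107 and 0.0506), though for both the groups did not overlap. Nsd3 passed with each array centred (adjusted p = 0.025), with genes under the median level left out (0.0288), with an intensity trend and robust prior (0.0423) and with array weights (0.0298), and in none of the fits with 1 array left out.

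Sorted by mark, in a grouping made after the values were seen, the erasers of lysine 4 fell in 4 of 5 cases and rose in 1, Kdm1a. Of the 6 writers of lysine 4 listed 1 fell. Of the 3 writers of lysine 9 2 fell, and of its 4 erasers 2 fell. Over all listed lysines 8 of 11 erasers and 4 of 15 writers fell, with medians of -0.34 and -0.23, where 5.72% of all genes and 13.0% of protein-coding genes at or above the median level fell. These counts moved with the settings. With each array centred or with array weights 7 of the 15 writers and 8 of the 11 erasers fell, and with the replicate block 4 and 5. With 1 array left out 2 to 6 writers and 5 to 8 erasers fell. Of the Kdm, Kmt and Setd genes the list left out Kdm7a, Kdm8 and Setd6, which did not pass, and Setd5 and Kmt2e, which fell. The counts of erasers and writers depend on these choices. No test of the difference between erasers and writers was made.

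The histone deacetylases had a median change of -0.01. Of 6 Hdac genes 1 fell, or 16.7%, beside 13.0% of the 6624 protein-coding genes at or above the median level. It was Hdac8, an X-linked enzyme that also deacetylates cohesin, which fell from 5.42 ± 0.12 to 5.06 ± 0.05 (limma adjusted p = 0.021). Its call was lost without control replicate 2 or cadmium replicate 2 or 3, at up to 0.0804. Hdac1 and Hdac2, the paired catalytic subunits of several corepressor complexes, were at 0.18 ± 0.06 (SE) and -0.08 ± 0.06 (SE). Hdac4, of a class that shuttles between nucleus and cytoplasm, was at 0.13 ± 0.06 (SE) by its brightest probe and at -0.02 by the mean of its probes, Hdac6, a deacetylase of tubulin, at 0.02 ± 0.05 (SE), and Hdac11 at -0.04 ± 0.05 (SE). The adjusted p of these 5 ran from 0.101 for Hdac1 to 0.847 for Hdac6. Of 3 sirtuins 0 passed by limma, and 0 at an unadjusted p under 0.05. Of the 6624 protein-coding genes at or above the median level 22.7% were lower and 17.1% higher at that unadjusted p. Sirt2, mostly cytoplasmic, was at 7.21 ± 0.04 in control and 7.25 ± 0.08 with cadmium, and the mitochondrial Sirt3 and Sirt4 changed by -0.01 ± 0.07 (SE) and 0.14 ± 0.06 (SE). The acetyltransferase Kat6a was at 6.64 ± 0.17 in control and 6.36 ± 0.02 with cadmium (adjusted p = 0.0789) and Kat8, which acetylates lysine 16 of histone H4, at 5.98 ± 0.14 in control and 6.17 ± 0.02 with cadmium (adjusted p = 0.153), on opposite sides of 0.

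Of 6 arginine methyltransferases 1 fell, or 16.7%, beside 13.0% of the 6624 protein-coding genes at or above the median level. Prmt9, which acts on a splicing factor, fell from 4.49 ± 0.07 to 4.20 ± 0.09 (limma adjusted p = 0.0362). That call was lost without any 1 array except cadmium replicate 1, at up to 0.117. Prmt1, responsible for most asymmetric arginine methylation, was at 6.95 ± 0.06 in control and 7.01 ± 0.05 with cadmium, a change of 0.06 ± 0.06 (SE). Prmt3, which methylates a ribosomal protein, had signals of 5.98, 6.03 and 6.26 on the control arrays and 6.37, 6.36 and 6.35 on the cadmium arrays. Its cadmium arrays were all above its control arrays, and it did not pass (limma adjusted p = 0.0726). Prmt6, Prmt7 and Prmt8 changed by -0.10, -0.08 and 0.11 and did not pass.

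Among the enzymes of DNA methylation, Dnmt3b, which sets new methyl groups, was at 4.23, 4.20 and 4.22 in control and 4.40, 4.42 and 4.50 with cadmium. The mean rose from 4.22 ± 0.02 to 4.44 ± 0.05, with all 6 arrays under the bound (limma adjusted p = 0.0313). The call was lost without any 1 array except cadmium replicate 1, at up to 0.11, and with each array centred on its median (adjusted p = 0.0626). Dnmt1, which copies methylation after replication, was at 6.10, 6.07 and 6.10 in control and 5.86, 5.95 and 5.93 with cadmium. Each cadmium array lay below each control array, and the change of -0.18 ± 0.05 (SE) did not pass (limma adjusted p = 0.0657). Both means of Dnmt1 lay below the bound too. With each array centred, where Dnmt3b lost its call, Dnmt1 passed as lower (adjusted p = 0.0354), as it did with genes under the median level left out (0.0398). The dioxygenases Tet2 and Tet3, which oxidise methylcytosine, changed by -0.11 ± 0.05 (SE) and 0.04 ± 0.12 (SE) and did not pass.

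Of the 2 bromodomain genes, Brd7, a subunit of a SWI/SNF remodelling complex, had signals of 5.92, 6.03 and 5.90 on the control arrays and 5.64, 5.60 and 5.64 on the cadmium arrays. It fell from 5.95 ± 0.07 to 5.63 ± 0.02 (limma adjusted p = 0.0109), and the call held with each array left out. Brdt, the form of the testis, was at 2.77 ± 0.03 in control and 2.80 ± 0.01 with cadmium. Brd7 and Brdt lay below the bound in both groups. Of the 4 genes set apart Nsdhl fell, from 4.65 ± 0.14 to 4.27 ± 0.09 (limma adjusted p = 0.0302), a call lost when control replicate 1 or 2 or cadmium replicate 2 or 3 was left out. Ezhip, Brd3os and Kdm4dl did not pass, at 0.17 ± 0.08 (SE), 0.12 ± 0.06 (SE) and -0.43 ± 0.19 (SE).

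**Figure D4:**
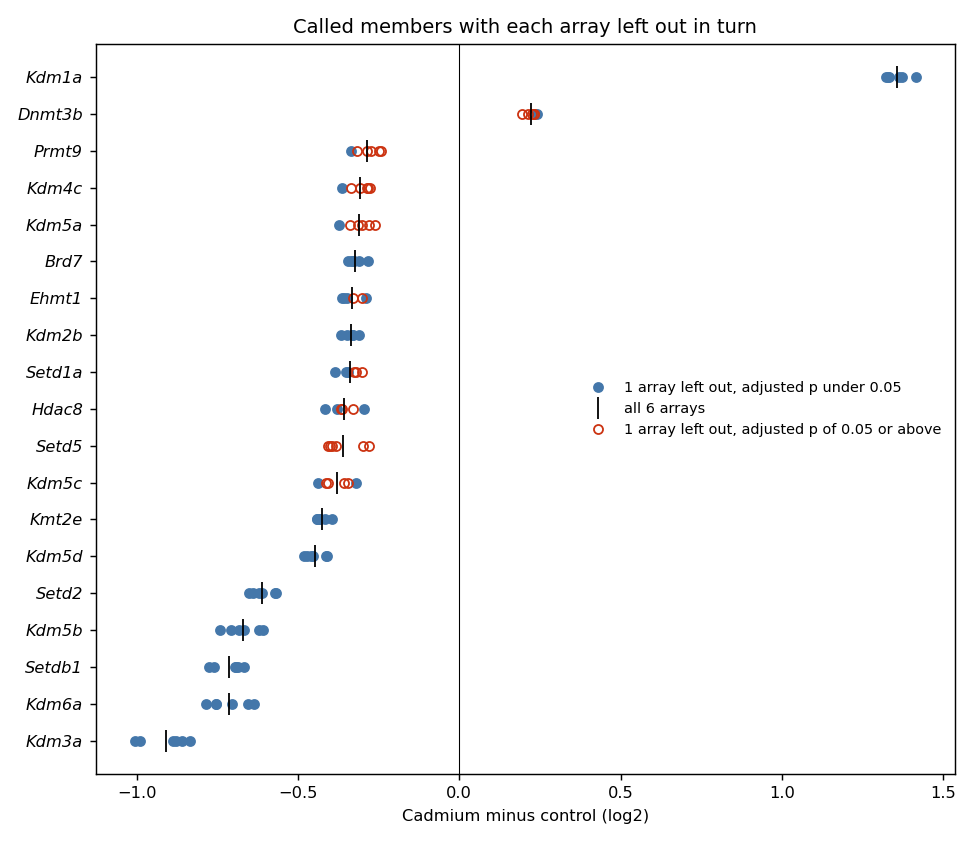
Change on the log2 scale (horizontal axis) of the 19 called genes with all 6 arrays (tick) and with each array left out in turn (points), filled where the adjusted p stayed under 0.05 and open where it did not. No change crossed 0, which could not occur for groups that do not overlap. In all 6 fits 10 genes kept the call, and 9 lost it in at least 1.

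With each array left out in turn, 10 of the 19 calls held in all 6 fits: Kdm1a, Kdm2b, Kdm3a, Kdm5b, Kdm5d, Kdm6a, Kmt2e, Setd2, Setdb1 and Brd7. The count of genes that fell was 11 without control replicate 1 or 2 and 13 without control replicate 3. It was 19 with cadmium replicate 1 left out and 9 with either of the other cadmium arrays left out. Without control replicate 3 and cadmium replicate 1 together, 23 of the 54 genes were called, of which 17 were among the 19.

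Proteins that carry these enzymes to chromatin were followed in 9 lists of partners and related enzymes, of which 77 of 153 genes were measured. Of these 12 fell, or 15.6%, and 0 rose by limma, with a median change of -0.09. Both group means lay above the background bound for 17 of the 77, 1 mean for 9 and no mean for 51. The share that fell was 5.72% over all genes and 13.0% over protein-coding genes at or above the median level, close to that of the partners. At an unadjusted p under 0.05 there were 30 lower and 7 higher partners of the 77. Of those protein-coding genes 22.7% were lower and 17.1% higher, and of all genes 11.3% and 17.6%. At that unadjusted p the partners thus held a larger share lower and a smaller share higher than either background. In the list of Kdm1a partners 1 of 8 fell: Rcor3, a corepressor of the CoREST family that binds Kdm1a, had signals of 5.13, 5.13 and 5.20 on the control arrays and 4.60, 4.61 and 4.62 on the cadmium arrays. The groups lay apart, and Rcor3 fell from 5.15 ± 0.04 to 4.61 ± 0.01 (limma adjusted p = 0.00149), with both means below the bound. The signals of Kdm1a and this partner thus went in opposite directions. The 1 of 8, or 12.5%, was near the 13.0% of those protein-coding genes. Insm1, Gfi1 and Snai1, which recruit Kdm1a, changed by 0.16, 0.08 and 0.15 and did not pass. Phf21a and Zmym3 of the same list changed by -0.35 and -0.22, with groups that did not overlap, and did not pass. Of the 8 changes 5 were above 0. Of 4 NuRD subunits 0 passed by limma, with 2 higher at an unadjusted p under 0.05.

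In the list of Polycomb partners 1 of 11 fell, Eed, the subunit of the Ezh2 complex that binds methylated lysine 27. Eed fell 1.36-fold, from 6.66 ± 0.05 to 6.22 ± 0.07 (limma adjusted p = 0.00394), and Bmi1 and Rnf2 of the other Polycomb complex changed by -0.09 and 0.01. Among the partners of lysine 4 writers 1 of 8 fell, Ncoa6, from 6.37 ± 0.08 to 5.98 ± 0.06, and all 8 changes were below 0. Wdr5, Rbbp5 and Ash2l of the shared core were at -0.17, -0.21 and -0.17, none of them past the threshold. Of the 6624 protein-coding genes at or above the median level 13.0% fell and 3207 had a change below 0. In the Sin3 and NCoR list 2 of 8 fell, the scaffold Sin3a from 5.35 ± 0.07 to 4.94 ± 0.03 and Sap30 from 5.37 ± 0.04 to 5.10 ± 0.08. Sin3a and Sap30 lay below the background bound in both groups. Among other methyltransferases and partners 1 of 13 fell, Trim28, which brings Setdb1 to its targets, from 6.33 ± 0.10 to 5.83 ± 0.07 (limma adjusted p = 0.00475).

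Among other acetyltransferases and partners 3 of 14 fell and all 14 changes were below 0. For the 6624 protein-coding genes at or above the median level these figures were 13.0% and 3207 genes. Msl2 and Msl3 belong with Kat8 to the male-specific lethal complex. Msl2 was at 5.95, 6.02 and 6.09 in control and 5.49, 5.29 and 5.30 with cadmium and fell from 6.02 ± 0.07 to 5.36 ± 0.11, and Msl3 fell from 4.70 ± 0.02 to 4.42 ± 0.03 (limma adjusted p = 0.00221 and 0.0109). Brpf1, a scaffold for Kat6a, fell from 5.73 ± 0.02 to 5.45 ± 0.09. Msl2, Msl3 and Brpf1 lay below the background bound in both groups. In the list of DNA methylation partners 2 of 9 fell. Ogt, which binds Tet enzymes and adds O-GlcNAc, fell 2.12-fold, from 8.69 ± 0.07 to 7.61 ± 0.34, and Idh2, a source of 2-oxoglutarate in mitochondria, 1.21-fold, from 6.65 ± 0.06 to 6.37 ± 0.09. Gadd45a, also in the list of DNA methylation partners, changed by 0.57 ± 0.15 (SE), the largest rise of the measured partners. Its cadmium arrays all lay above its control arrays, and it did not pass (limma adjusted p = 0.0525). It passed with the replicate block (adjusted p = 0.0404), and its adjusted p ran from 0.0056 to 0.157 with 1 array left out. In the list of other demethylases Uty fell, as above, and Phf8 did not pass. The calls of Sap30, Brpf1, Msl3 and Idh2 were lost when at least 1 array was left out, at an adjusted p of up to 0.102, 0.0938, 0.0515 and 0.0968.

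**Figure D5:**
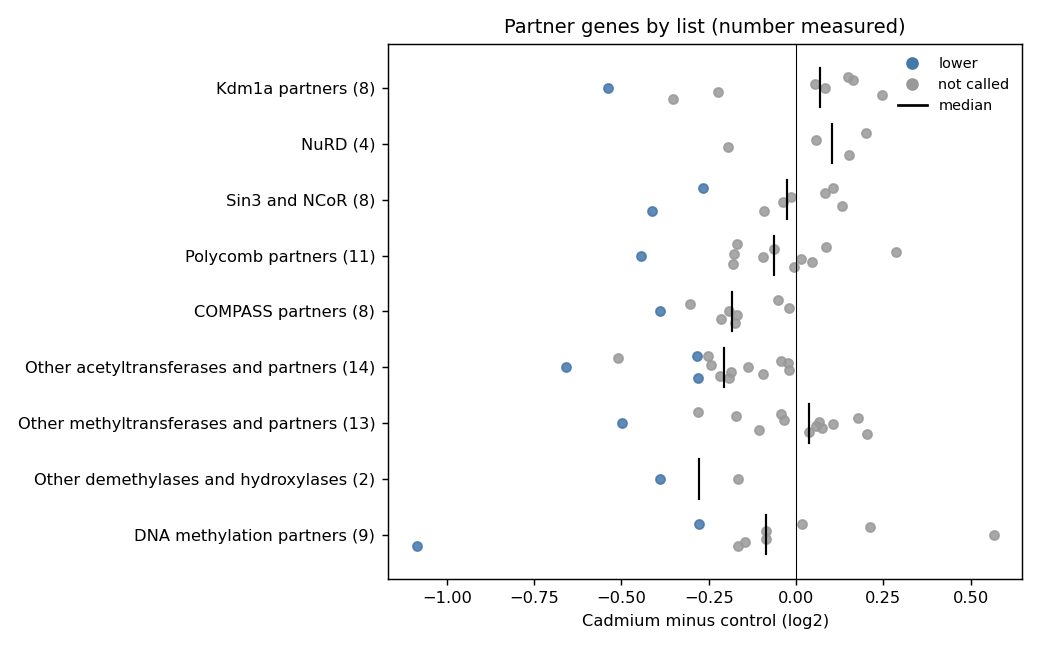
Change on the log2 scale (horizontal axis) of each measured gene in the 9 partner lists, with the median of each list as a line and the number measured in brackets. Of the 77 genes 12 (15.6%) are called lower and 0 higher, beside 13.0% lower among protein-coding genes at or above the median level, with Ogt farthest to the left at -1.09 and Rcor3 at -0.54 among the partners of Kdm1a.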

How the data were processed

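Total RNA labelled with biotin was measured on 6 arrays. The deposited values are taken as log2 signals, 1 per probe and array, from their range. The authors' software, background correction, normalization and base of the logarithm: not given in the sources used here. Folds hold only if the logarithm has base 2. The values were used without further scaling. Of 39746 transcript clusters 19183 had 1 gene in the platform annotation, 962 several and 19601 none in that annotation. Current symbols were taken from RefSeq GRCm38.p6 by identifier or synonym, which renamed 5 of the 54 genes, and the brightest probe stood for each gene (Hdac4 had over 1 probe). Columns without a sample numbered 0.

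Groups came from the sample titles. All 18957 genes were fitted by group in R 4.3.3 with the lmFit and eBayes functions of limma 3.58.1, with two-sided Benjamini-Hochberg adjustment over all genes at 0.05. The steps were tested on simulated data. Precision is limited by the number of arrays. The members and lists were chosen with earlier results of these data known. Named were all called members, the member of lowest adjusted p in each family, 19 measured of 40 listed members, and up to 4 called genes of each partner list. Other members are named too, to account for all, after their values were seen. Alternatives covered scaling, a level filter, probes and symbols, the variance model, array weights, the replicate block, the threshold, a minimum change and leaving out arrays. Figures were drawn with matplotlib 3.10.9.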

Additional observations from a re-analysis of the deposited data

How the results depend on the processing

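The 54 genes gave 19 calls, 2 higher and 17 lower, with a median change of -0.10, beside 2309 calls over all genes and 12 among partners. Genes called higher numbered 1 with each array centred on its median, 1 in the replicate block, 1 at a threshold of 0.01, 1 in the test against a change of 0.26, 4 with array weights and 4 without control replicate 3 and cadmium replicate 1. At the threshold of 0.01 there were 9 calls, 8 of them lower, and 868 over all genes. Against a change of 0.26 there were 6 calls, 5 lower, with 428 over all genes and 3 among partners. With array weights there were 25 calls among the 54 genes and 21 among partners, with 3390 over all genes. Without control replicate 3 and cadmium replicate 1, chosen after seeing the data, there were 23 calls, with 22 among partners and 2890 over all genes. With the 4 symbols set apart, also chosen then, there were 20 calls. The median change was -0.14 with arrays centred and -0.18 when dimmer genes were dropped. Same-numbered arrays deviated from their group means with correlations of -0.11, 0.06 and -0.11, so they did not deviate alike. Correlations from so few arrays cannot tell whether the cultures were paired. The largest over all pairs was 0.16, for control replicate 3 and cadmium replicate 1, and a shared origin of these arrays was not tested. With the replicate block 14 of the 19 calls were kept and 1387 genes were called in all.

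With 1 array left out the ranges were 1140 to 2348 genes called in all, 10 to 21 among the 54, 1 to 3 higher, 9 to 19 lower, and -0.15 to -0.10 for the median change. Of the 54 genes 15 changed sign in at least 1 alternative, 0 of them among the 19 called and in no case with an adjusted p under 0.05 (limma). Among the named ones these were Hdac6 at -0.023 with arrays centred, and with 1 array left out Setd7 (-0.072 to 0.018), Sirt3 (-0.055 to 0.047), Suv39h2 (-0.10 to 0.026) and Tet3 (-0.054 to 0.15). The others were Brdt, Hdac4, Kdm4a, Kdm4d, Kdm7a, Kmt2c, Prmt6, Prmt7, Setd1b and Sirt2, with Kdm7a the farthest, at 0.10 without control replicate 3 and cadmium replicate 1. Tet3 was at 0.22 without control replicate 3 and cadmium replicate 1. The cause of these moves was not tested. In at least 1 alternative 9 genes gained a call: Dnmt1, Ezh2, Hdac1, Kat8, Kdm8, Kmt2a, Kmt2b, Nsd3 and Prmt3. The 19 called genes kept their direction in every alternative. Their groups did not overlap, so leaving out arrays could not turn a sign. For the 36 genes with both means below the bound no fold could be given.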
